A study of Mus musculus with 9 samples.

Results

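Major histocompatibility complex (MHC) class I presentation was followed through 9 genes of mouse brain, taken by symbol from the count table: B2m, H2-D1, H2-K1, Tap1, Tap2, Tapbp, Psmb8, Psmb9 and Psmb10. They are 9 of 56748 genes in the table, and all 9 passed the filter on low counts that left 17575 genes for testing. RNA came from brains of mice aged 7 months from which the cerebellum had been taken away, with 3 libraries per genotype and, going by the titles, 1 mouse per library. The wild-type mice carried neither transgene set. The 5xFAD mice carry mutant human transgenes of familial Alzheimer disease, driven by the neuronal Thy1 promoter, and deposit amyloid in the brain. The 5xFAD/Cd5l tg/wt mice carried the same background and in addition a transgene for mouse Cd5l, a secreted macrophage protein, under the human PDGF-B promoter, which is often used to drive expression in neurons. The labels give neither sex nor litter, and whether the transgenic mice came from 1 founder line is not given in the sources used here.

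In class I presentation, cytosolic proteins are cut by the proteasome, the peptides are pumped into the endoplasmic reticulum by the TAP transporter, and they are loaded with help of tapasin onto a heavy chain paired with beta-2-microglobulin. Inflammatory signals, interferon gamma above all, replace the catalytic subunits of the constitutive proteasome with those of the immunoproteasome. In the healthy brain class I genes are mostly expressed in microglia and endothelial cells, at low levels in many neurons, and class I molecules display peptides to CD8 T cells.

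B2m encodes the light chain (GRCm39, chromosome 2, bases 121978167 to 121983564). H2-D1 (chromosome 17, 35481706 to 35486475) and H2-K1 (chromosome 17, 34214991 to 34219321) encode classical heavy chains. Tap1 (chromosome 17, 34406527 to 34416199) and Tap2 (chromosome 17, 34422501 to 34435295) encode the transporter, and Tapbp (chromosome 17, 34134873 to 34148266) encodes tapasin. Psmb8 (chromosome 17, 34416695 to 34420428), Psmb9 (chromosome 17, 34400961 to 34406738) and Psmb10 (chromosome 8, 106662367 to 106665076) encode the catalytic subunits of the immunoproteasome. Thus 7 of the 9 genes lie within 1352 kb of chromosome 17, the mouse MHC.

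The starts of 4 genes are shown because the 3 light and heavy chain genes rose in 5xFAD/Cd5l tg/wt against wild-type mice and because Tap1 shares its start region with Psmb9. The sequences are RefSeq promoters on GRCm38.p6, from 250 bases before to 50 bases after the annotated start, 5′ to 3′ on the gene's strand. Promoters were found for 8 of the 9 genes. Capitals mark matches, on either strand, to GAANNGAAA and AAANNGAAA (interferon-response motifs, the second added after the B2m sequence was seen), TTCNNNGAA (the gamma-activated site), the kappa B consensus, TGACG (the core of the X2 box) and CCAAT. The windows are chr2:122147437-122147736 on the plus strand for B2m, chr17:35262844-35263143 on the plus strand for H2-D1, chr17:34000298-34000597 on the minus strand for H2-K1, and chr17:34187306-34187605 on the plus strand for Tap1.
B2m: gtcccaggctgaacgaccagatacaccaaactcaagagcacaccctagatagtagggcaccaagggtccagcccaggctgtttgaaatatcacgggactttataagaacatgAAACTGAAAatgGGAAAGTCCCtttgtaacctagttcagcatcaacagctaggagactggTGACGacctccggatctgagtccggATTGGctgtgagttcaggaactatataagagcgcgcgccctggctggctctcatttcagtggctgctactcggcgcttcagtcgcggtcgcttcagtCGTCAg
H2-D1: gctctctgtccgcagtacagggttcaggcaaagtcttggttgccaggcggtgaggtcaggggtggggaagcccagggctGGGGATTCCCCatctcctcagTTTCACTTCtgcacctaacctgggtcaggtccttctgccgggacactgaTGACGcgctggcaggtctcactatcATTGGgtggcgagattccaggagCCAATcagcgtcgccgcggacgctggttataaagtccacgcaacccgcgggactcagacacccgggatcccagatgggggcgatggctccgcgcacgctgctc
H2-K1: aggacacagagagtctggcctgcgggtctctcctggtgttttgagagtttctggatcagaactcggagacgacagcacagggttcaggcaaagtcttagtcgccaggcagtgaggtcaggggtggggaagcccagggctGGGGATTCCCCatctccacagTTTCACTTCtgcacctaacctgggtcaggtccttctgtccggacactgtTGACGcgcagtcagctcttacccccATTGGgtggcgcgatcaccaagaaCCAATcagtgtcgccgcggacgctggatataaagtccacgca
Tap1: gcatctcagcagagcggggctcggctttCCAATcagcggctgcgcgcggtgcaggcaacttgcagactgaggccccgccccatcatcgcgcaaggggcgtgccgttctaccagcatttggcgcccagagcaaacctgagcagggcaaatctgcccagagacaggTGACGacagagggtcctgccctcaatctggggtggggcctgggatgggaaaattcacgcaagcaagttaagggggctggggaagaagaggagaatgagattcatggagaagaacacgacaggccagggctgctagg

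The light and heavy chain windows each held a kappa B match, TGACG and CCAAT or its complement. H2-D1 and H2-K1 also held GAANNGAAA. B2m held only AAANNGAAA, a motif added after its sequence was seen, so finding it there carries no weight. In B2m this match, aaactgaaa, began at position -138 from the start and the kappa B match at -126. H2-D1 and H2-K1 held the same run GGGGATTCCCC, in which 2 kappa B matches overlap and each reads on both strands, followed by tttcacttc, which is GAANNGAAA on the other strand. Over all 32851 promoters of this length, GAANNGAAA was found in 7.52%, AAANNGAAA in 10.6%, TTCNNNGAA in 8.3%, the kappa B consensus in 8.46%, TGACG in 20.8% and CCAAT in 37.4%. Among the 8 genes with a promoter, these motifs were present in 2, 1, 1, 3, 5 and 6 genes. The gamma-activated match was in Psmb8, at position -97. The windows of Tap1 and Psmb9 overlap by 275 of 300 bases on opposite strands, and their starts lie 226 bases apart. The TGACG and CCAAT matches of Tap1 and Psmb9 are therefore the same sites, counted for each gene. These matches describe letters only, and no binding was measured.

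The libraries held 14575416 to 17865150 counts. Cd5l had 0 or 1 count in each of the 6 libraries without the transgene and 2553, 2822 and 3551 in those of 5xFAD/Cd5l tg/wt mice. Thy1, whose promoter cassette is part of the 5xFAD transgenes, stood at 590.4 to 662 CPM (reads scaled to library size) in wild-type libraries and at 1444 to 1981 CPM in the other 6. Neuronal markers summed to 5340 to 6080 CPM in the 9 libraries, as brain tissue has. In Cbln3 and Slc6a3, genes of single brain regions, 3 libraries stood apart. Wild-type library 3 had 2771 counts of the cerebellar granule cell gene Cbln3, against 6 to 318 in the other 8. Libraries 2 and 3 of 5xFAD/Cd5l tg/wt had 2 and 8 counts of Slc6a3, the dopamine transporter of midbrain neurons, against 62 to 429 in the other 7. For the 9 genes and the tested genes of the lists below that are named for a call, both values are given where leaving out these 3 libraries changes the call. The fit without them keeps 1 library of 5xFAD/Cd5l tg/wt, library 1, which is then assumed to vary like the others. Library 1 was itself the lowest in Drd2 and Ppp1r1b, genes of striatal neurons, at 21.11 and 224.3 CPM. The other 8 had 28.9 to 46.46 and 247.8 to 412.4 CPM. Chrna3 had 4 to 15 counts in the 3 libraries of 5xFAD/Cd5l tg/wt, against 32 to 61 in the other 6. The fit without the 3 libraries apart therefore does not make the genotypes alike in regional genes.

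Levels of different genes are compared as CPM per kilobase of the gene length in the table. In wild-type brain B2m was the most abundant, at 95 ± 6.36 CPM per kilobase (SD, n = 3). H2-D1 followed at 20.9 ± 3.35, Psmb10 at 15.5 ± 2.48, H2-K1 at 12.3 ± 1.43, Tapbp at 7.8 ± 0.112 and Tap2 at 3.32 ± 0.525. The lowest were Psmb8 at 0.972 ± 0.122, Tap1 at 0.614 ± 0.2 and Psmb9 at 0.326 ± 0.037 CPM per kilobase. Among neighbours in this order, the ranges of Psmb10 and H2-K1 overlapped and those of the other pairs did not. H2-K1 in 5xFAD/Cd5l tg/wt mice, at 19.2 ± 2.95, stood above Psmb10, at 16.7 ± 0.737 CPM per kilobase, with overlapping ranges.

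Each gene was tested between genotypes in a fit of all 9 libraries with edgeR's quasi-likelihood test, and a gene rose or fell where the Benjamini-Hochberg adjusted p over all tested genes was under 0.05. Fold changes are on the log2 scale, ± SE. In 5xFAD against wild-type mice 2 of the 9 genes rose, B2m and Psmb9, and none fell, while 1.06% of all tested genes rose, 2.44% fell and so 3.5% passed. When 5xFAD/Cd5l tg/wt was compared with wild-type, 5 of the 9 rose, B2m, H2-D1, H2-K1, Psmb8 and Psmb9, while 1.38% of all genes rose, 0.199% fell and so 1.58% passed. When it was compared with 5xFAD, 0 of the 9 passed, with edgeR as with DESeq2 and limma-voom, while 5.34% of all genes rose, 0.888% fell and so 6.23% passed. At an unadjusted p under 0.05 there were 6 of the 9 genes in 5xFAD against wild-type, 4 between the amyloid genotypes and 7 in 5xFAD/Cd5l tg/wt against wild-type, where all tested genes gave 16.3%, 22.3% and 12.4%. The median difference of the 9 genes was 0.40, 0.27 and 0.80 in that order, and that of all tested genes was -0.01, 0.0066 and 0.0008. The comparisons share libraries, so they do not count as separate evidence. Because the tissue was analysed in bulk, more cells of a type and more RNA per cell cannot be told apart.

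**Figure D1:**
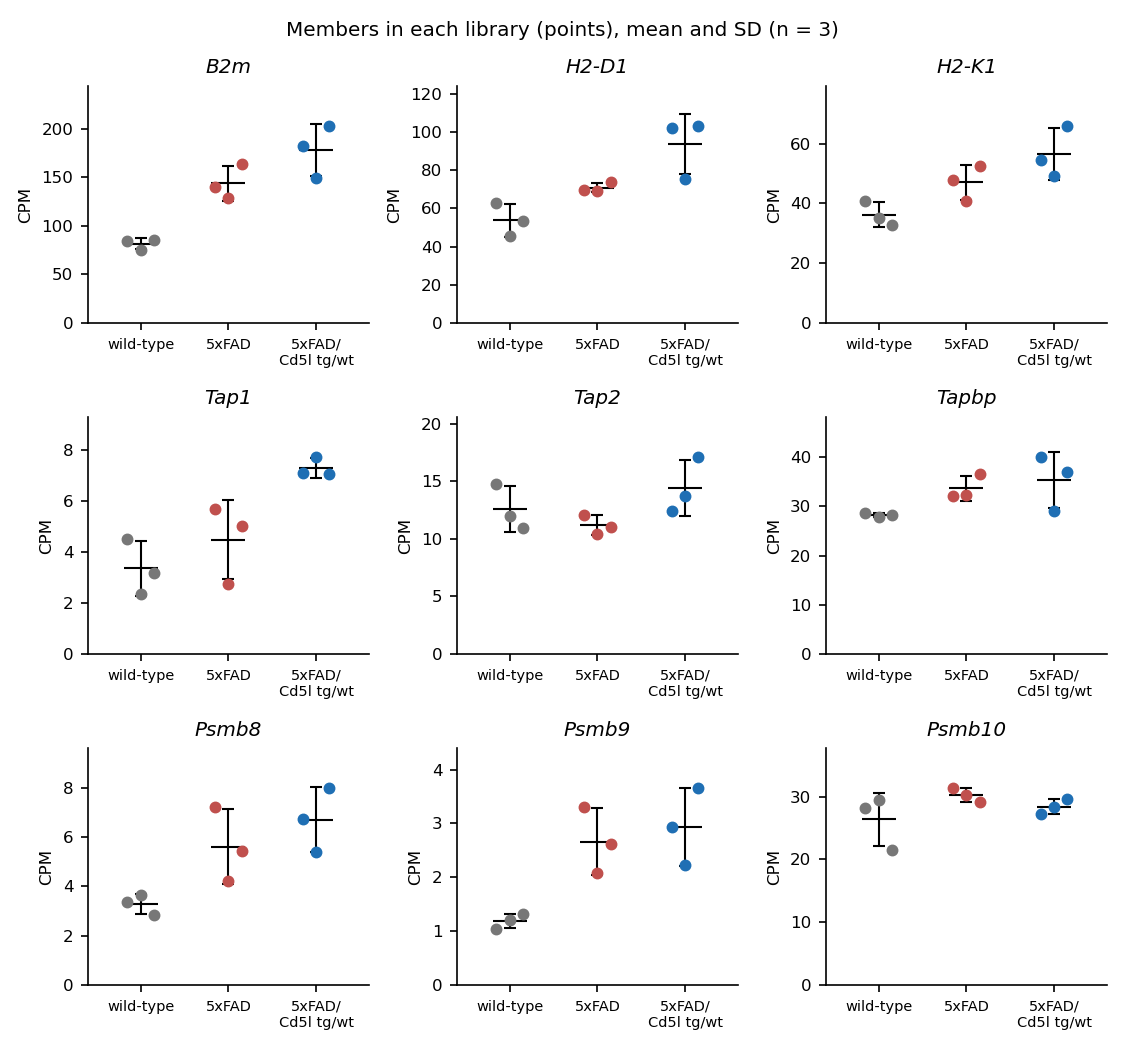
CPM of the 9 genes (vertical axes, starting at 0) in each library of the 3 genotypes (points), with mean and SD of 3 libraries. B2m lies at 75.46 to 85.67 CPM in wild-type, 128.5 to 163.5 in the 5xFAD and 149.4 to 203.2 in 5xFAD/Cd5l tg/wt libraries, whereas wild-type overlaps both amyloid genotypes for Tap2 and Psmb10.

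The light chain gene rose in both amyloid genotypes against wild-type. B2m stood at 83.95, 75.46 and 85.67 CPM in the wild-type libraries, 139.7, 128.5 and 163.5 CPM in the 5xFAD libraries and 181.9, 149.4 and 203.2 CPM in the 5xFAD/Cd5l tg/wt libraries. Every amyloid library lay above every wild-type library, and the 2 amyloid genotypes overlapped. B2m rose by 0.82 ± 0.116 in 5xFAD mice (adjusted p = 0.00194), a fold of 1.76, and by 1.13 ± 0.116 in 5xFAD/Cd5l tg/wt mice (adjusted p = 0.000159), a fold of 2.18. These calls held in all 20 other ways of fitting the data. B2m differed between the amyloid genotypes by 0.31 ± 0.114 (95% interval 0.061 to 0.557, adjusted p = 0.133).

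Both heavy chain genes rose in 5xFAD/Cd5l tg/wt against wild-type mice, and neither passed in the other comparisons. H2-D1, one of the classical heavy chains, stood at 62.85, 45.6 and 53.24 CPM in wild-type, 69.76, 69.36 and 73.68 in 5xFAD and 102.2, 75.53 and 103.4 in 5xFAD/Cd5l tg/wt libraries. The 3 genotypes did not overlap and lay in that order. H2-D1 rose by 0.80 ± 0.13 in 5xFAD/Cd5l tg/wt against wild-type mice (adjusted p = 0.00588), also in all 20 alternatives. The difference of 5xFAD from wild-type was 0.40 ± 0.13 (adjusted p = 0.139) and that between the amyloid genotypes 0.40 ± 0.129 (adjusted p = 0.0866). Without the 3 libraries apart in regional genes, these 2 differences were 0.40 and 0.51 and passed, with adjusted p = 0.0439 and 0.0481. They also passed without the filter, and the second without library 2 of 5xFAD/Cd5l tg/wt (0.54, adjusted p = 0.0303).

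H2-K1, the other classical heavy chain, stood at 40.93, 35.08 and 32.77 CPM in wild-type, 47.72, 40.91 and 52.6 in 5xFAD and 54.4, 49.16 and 66.07 in 5xFAD/Cd5l tg/wt libraries. Neighbouring genotypes overlapped, whereas wild-type and 5xFAD/Cd5l tg/wt libraries did not. H2-K1 rose by 0.64 ± 0.127 in 5xFAD/Cd5l tg/wt against wild-type mice (adjusted p = 0.0228), but not without the 3 libraries apart (0.51, adjusted p = 0.0864), and the call was lost in 6 of 20 alternatives. Among these were fits without wild-type library 2 or 3, 5xFAD library 1 or library 3 of 5xFAD/Cd5l tg/wt (adjusted p = 0.0815, 0.0917, 0.0538 and 0.128). It differed by 0.37 ± 0.127 in 5xFAD against wild-type (adjusted p = 0.153) and by 0.27 ± 0.125 between the amyloid genotypes (adjusted p = 0.233).

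Relative to the heavy chains, the light chain was higher with amyloid. B2m per kilobase stood at 2.55 to 3.13 times the sum of H2-D1 and H2-K1 per kilobase in wild-type libraries, at 3.66 to 4.09 times in the 5xFAD and at 3.64 to 3.78 times in 5xFAD/Cd5l tg/wt libraries. The ranges of the wild-type and amyloid libraries did not overlap, and this ratio was not tested. The heavy chain genes resemble others of the family. In an older transcript set 14.3% of the 50-base words of H2-D1 also occurred in other genes, H2-Q1 first with 7.4%, and 8.79% of those of H2-K1, H2-D1 first with 6.94%. How reads matching several genes were counted is not given in the sources used here, so the split between family members is uncertain. B2m, Psmb8, Psmb9 and Psmb10 had 0 shared words.

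The transporter and tapasin genes did not pass in any of the 3 comparisons. Tap1 stood at 4.535, 2.371 and 3.181 CPM in wild-type, 5.692, 2.75 and 5.019 in 5xFAD and 7.124, 7.755 and 7.053 in 5xFAD/Cd5l tg/wt libraries. The 5xFAD/Cd5l tg/wt libraries were close together and above all 6 others, which overlapped. Tap1 differed by 1.11 ± 0.276 between 5xFAD/Cd5l tg/wt mice and wild-type (adjusted p = 0.0793) and by 0.71 ± 0.27 between the amyloid genotypes (95% interval 0.125 to 1.3, adjusted p = 0.143). The first of these passed in 5 of 20 alternatives, among them DESeq2 (adjusted p = 0.0108) and the fits without wild-type library 1 (0.0497) or 5xFAD library 2 (0.0421). In 5xFAD against wild-type Tap1 differed by 0.40 ± 0.284 (adjusted p = 0.545).

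Tap2, which encodes the other transporter chain, stood at 14.77, 11.98 and 10.92 CPM in wild-type, 12.11, 10.44 and 11.04 in 5xFAD and 12.38, 13.69 and 17.15 in 5xFAD/Cd5l tg/wt libraries. Both amyloid genotypes overlapped with wild-type but not with each other. Its differences were -0.17 ± 0.156 in 5xFAD against wild-type (adjusted p = 0.668), 0.37 ± 0.155 between the amyloid genotypes (adjusted p = 0.187) and 0.20 ± 0.154 between 5xFAD/Cd5l tg/wt mice and wild-type (adjusted p = 0.666). The last of these was -0.12 without the 3 libraries apart.

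Tapbp, the tapasin gene, stood at 28.72, 27.91 and 28.28 CPM in wild-type, 32.03, 32.38 and 36.67 in 5xFAD and 40.15, 29 and 37.01 in 5xFAD/Cd5l tg/wt libraries. All amyloid libraries lay above wild-type, library 2 of 5xFAD/Cd5l tg/wt by the least. Tapbp differed by 0.25 ± 0.113 in 5xFAD (adjusted p = 0.295) and by 0.32 ± 0.113 in 5xFAD/Cd5l tg/wt mice (adjusted p = 0.242), both against wild-type. Without the 3 libraries apart the second was 0.50 and passed (adjusted p = 0.0414), as it did without 5xFAD/Cd5l tg/wt library 2 alone (0.45, adjusted p = 0.0439). The amyloid genotypes differed by 0.07 ± 0.112 (adjusted p = 0.745). Tapbp overlaps Zbtb22 on the same strand over 3422 bases, and Zbtb22 had 363 to 610 counts per library.

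The immunoproteasome subunits divided. Psmb8 stood at 3.372, 3.648 and 2.835 CPM in wild-type, 7.214, 4.209 and 5.421 in 5xFAD and 6.725, 5.395 and 8.012 in 5xFAD/Cd5l tg/wt libraries. All amyloid libraries lay above wild-type, and the amyloid genotypes overlapped. Psmb8 rose by 1.03 ± 0.232 in 5xFAD/Cd5l tg/wt against wild-type mice (adjusted p = 0.0476), a call lost in 11 of 20 alternatives, among them the fit without the 3 libraries apart (0.93, adjusted p = 0.183). It was also lost without any of the wild-type libraries (adjusted p = 0.129, 0.0842 and 0.163 for 1 to 3), 5xFAD library 3 (0.0818) or library 3 of 5xFAD/Cd5l tg/wt (0.199). Psmb8 differed by 0.76 ± 0.234 in 5xFAD against wild-type (adjusted p = 0.11) and by 0.27 ± 0.222 between the amyloid genotypes (95% interval -0.217 to 0.748, adjusted p = 0.516).

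Psmb9 was the least abundant member, with 18 to 65 counts per library. It stood at 1.046, 1.216 and 1.314 CPM in wild-type, 3.309, 2.076 and 2.61 in 5xFAD and 2.93, 2.225 and 3.668 in 5xFAD/Cd5l tg/wt libraries. Again all amyloid libraries lay above wild-type. Psmb9 rose by 1.15 ± 0.29 in 5xFAD mice (adjusted p = 0.0492), a fold of 2.23, and by 1.31 ± 0.288 in 5xFAD/Cd5l tg/wt mice (adjusted p = 0.0421), a fold of 2.47. Each call was lost in 11 of 20 alternatives, with adjusted p up to 0.228 and 0.182. Neither passed without any one of the 3 wild-type libraries, any one of the 3 from 5xFAD mice or library 3 of 5xFAD/Cd5l tg/wt. The highest values were those without 5xFAD library 1 for the first (difference 0.97) and without library 3 of 5xFAD/Cd5l tg/wt for the second (1.11). The first passed and the second did not without the 3 libraries apart (adjusted p = 0.0466 and 0.155). Psmb9 differed between the amyloid genotypes by 0.15 ± 0.266 (95% interval -0.424 to 0.73, adjusted p = 0.774). Psmb9 and Tap1 overlap by 212 bases on opposite strands, and whether counting used strand is not given in the sources used here.

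Psmb10, the third catalytic subunit, stood at 28.2, 29.43 and 21.57 CPM in wild-type, 31.44, 30.25 and 29.18 in 5xFAD and 27.17, 28.39 and 29.68 in 5xFAD/Cd5l tg/wt libraries. The genotypes overlapped, and wild-type library 3 was lowest. Psmb10 differed by 0.20 ± 0.111 in 5xFAD against wild-type (95% interval -0.044 to 0.436, adjusted p = 0.423), by -0.09 ± 0.11 between the amyloid genotypes (adjusted p = 0.664) and by 0.10 ± 0.111 between 5xFAD/Cd5l tg/wt mice and wild-type (adjusted p = 0.773). The last of these was -0.09 without the 3 libraries apart.

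Counted by ranges, every 5xFAD library lay above every wild-type library for 5 of the 9 genes, against 10.4% of all tested genes. It held for 7 of 9 genes, against 7.93%, when 5xFAD/Cd5l tg/wt was set against wild-type, with Tap2 and Psmb10 the exceptions. Set against 5xFAD, it held for 3 of 9, H2-D1, Tap1 and Tap2, against 16.6%.

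**Figure D2:**
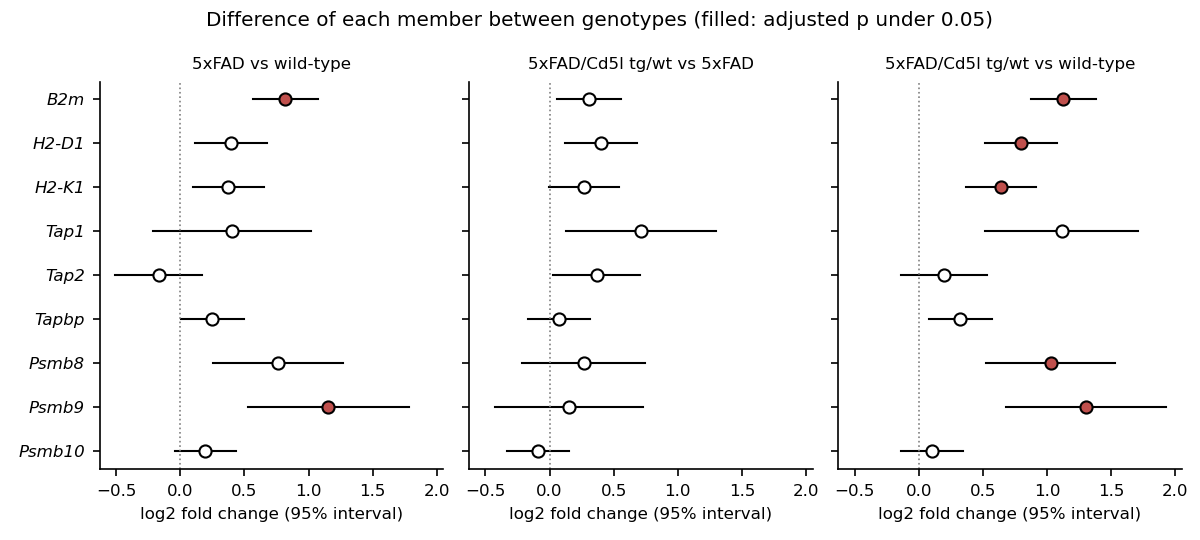
Log2 fold change (horizontal axis) of each gene in the 3 comparisons with its 95% interval, filled where the adjusted p was under 0.05. Filled points are B2m and Psmb9 in 5xFAD against wild-type, none between the amyloid genotypes, and B2m, H2-D1, H2-K1, Psmb8 and Psmb9 in 5xFAD/Cd5l tg/wt against wild-type.

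Each immunoproteasome subunit replaces a constitutive one, Psmb8 for Psmb5, Psmb9 for Psmb6 and Psmb10 for Psmb7, and a ratio within a library does not depend on scaling. Psmb8 stood at 1.33%, 1.38% and 1.3% of Psmb5 per kilobase in wild-type, 2.69%, 1.55% and 2.29% in 5xFAD and 2.99%, 2.48% and 3.34% in 5xFAD/Cd5l tg/wt libraries. Psmb9 stood at 0.776%, 0.787% and 1.03% of Psmb6 in wild-type, 2.11%, 1.34% and 1.79% in 5xFAD and 2.13%, 1.67% and 2.88% in 5xFAD/Cd5l tg/wt libraries. Both ratios were higher in every amyloid library than in every wild-type library. Psmb10 was a larger share, 46.9% ± 6.32 of Psmb7 in wild-type, 52.3% ± 1.71 in the 5xFAD and 55.4% ± 2.25 in 5xFAD/Cd5l tg/wt mice (SD, n = 3). The log2 differences in 5xFAD against wild-type were 0.67 for Psmb8, 1.00 for Psmb9 and 0.17 for Psmb10. Those in 5xFAD/Cd5l tg/wt against wild-type were 1.12, 1.34 and 0.25, and those between the amyloid genotypes 0.46, 0.34 and 0.08. Between the amyloid genotypes both sides of the ratios moved. Psmb8, Psmb9 and Psmb10 differed there by 0.27, 0.15 and -0.09, and Psmb5, Psmb6 and Psmb7 by -0.19, -0.20 and -0.18, none passing. Single libraries moved several of the ratio differences. Between the amyloid genotypes the difference for Psmb8 was 0.23 without 5xFAD library 2, and that for Psmb9 was 0.161 without the same library, 0.138 without library 3 of 5xFAD/Cd5l tg/wt and 0.528 without its library 2. For Psmb10 it was 0.0488 without library 3 of 5xFAD/Cd5l tg/wt and 0.0421 without the 3 libraries apart. Without wild-type library 3 the difference for Psmb10 from wild-type was 0.0514 for 5xFAD and 0.134 for 5xFAD/Cd5l tg/wt mice, and without the 3 libraries apart it was 0.0514 and 0.0936. In exact two-sided permutation tests with 3 libraries a group no p can be below 0.1. That value was reached for 5 of the 9 differences, and the adjusted p over the 9 tests ran from 0.18 to 0.4, so no ratio passed.

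**Figure D3:**
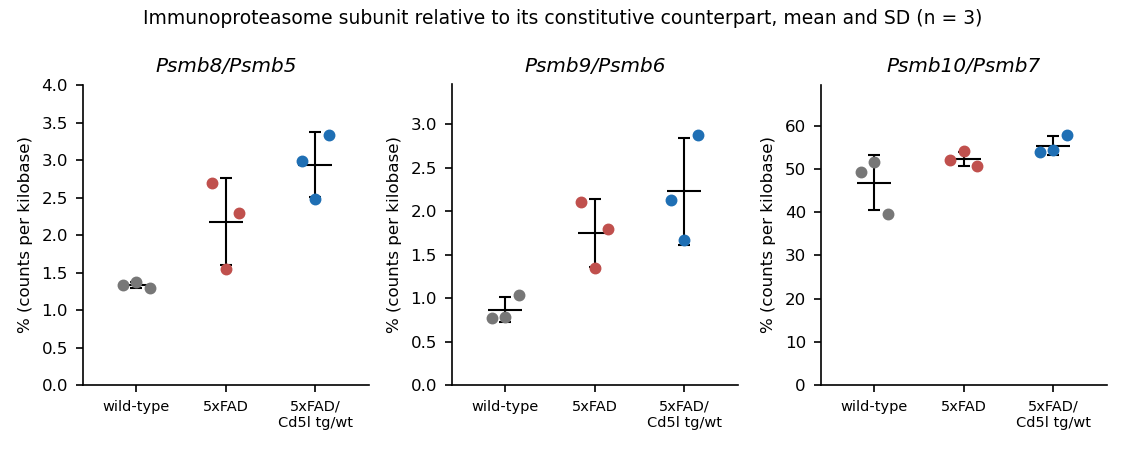
Level of each immunoproteasome subunit as a percent of its constitutive counterpart, both per kilobase (vertical axes, starting at 0), in each library (points) with mean and SD of 3 libraries. Psmb8/Psmb5 and Psmb9/Psmb6 lie at 1.3% to 1.38% and 0.776% to 1.03% in wild-type libraries, under every amyloid library.

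The constitutive subunits Psmb5, Psmb6 and Psmb7 gave 0 of 3 calls in each comparison with edgeR, and 0, 2 and 0 at an unadjusted p under 0.05 in 5xFAD against wild-type, between the amyloid genotypes, and in 5xFAD/Cd5l tg/wt against wild-type. Psmb5 differed by 0.08 ± 0.0898 in 5xFAD against wild-type mice, Psmb6 by 0.14 ± 0.0821 and Psmb7 by 0.04 ± 0.0644. Their differences between the amyloid genotypes were -0.19 ± 0.09, -0.20 ± 0.0823 and -0.18 ± 0.0645. Of 7 genes for proteasome activators and assembly factors, only Psme4, which encodes the PA200 activator, passed in any comparison. It rose by 0.49 ± 0.121 between the amyloid genotypes (adjusted p = 0.0341), a call lost in 7 of 20 alternatives, among them the fit without the 3 libraries apart (0.20, adjusted p = 0.316). Psme4 differed by -0.45 ± 0.122 in 5xFAD against wild-type (adjusted p = 0.0692), which passed in 5 of 20 alternatives, among them the fit without the 3 libraries apart (-0.33, adjusted p = 0.0354), and by 0.04 ± 0.12 in 5xFAD/Cd5l tg/wt against wild-type (adjusted p = 0.935). The interferon-inducible activator gene Psme1 differed by 0.31 ± 0.0989 in 5xFAD/Cd5l tg/wt against wild-type mice (adjusted p = 0.192).

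Loading chaperones and trimming enzymes gave 0 of 8 calls in each of the 3 comparisons with edgeR, and 3, 5 and 0 at an unadjusted p under 0.05. The gene with the smallest p was Pdia3, an oxidoreductase of the loading complex, in 5xFAD against wild-type (0.24 ± 0.0924, adjusted p = 0.212), Hspa5, the chaperone BiP, between the amyloid genotypes (-0.57 ± 0.182, adjusted p = 0.0879) and Erap1, which trims peptides, in 5xFAD/Cd5l tg/wt against wild-type (0.24 ± 0.158, adjusted p = 0.591). Of 14 non-classical class I genes 10 were tested and 0 passed in each comparison (0, 2 and 3 at an unadjusted p under 0.05), with medians of -0.04, 0.15 and 0.11 in 5xFAD against wild-type, between the amyloid genotypes, and in 5xFAD/Cd5l tg/wt against wild-type. H2-T23, H2-Q4 and H2-M3 had the smallest p in these comparisons in turn, at 0.26 ± 0.148, 0.62 ± 0.222 and 0.74 ± 0.224 (adjusted p = 0.426, 0.124 and 0.163).

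Among 16 regulators of class I transcription, 1 passed in each comparison. Irf8, an interferon regulatory factor of microglia and other myeloid cells, stood at 5.349, 5.229 and 5.946 CPM in wild-type, 15.22, 12.51 and 15.73 in 5xFAD and 18.04, 18.54 and 20.14 in 5xFAD/Cd5l tg/wt libraries. The 3 genotypes did not overlap. Irf8 rose by 1.39 ± 0.133 and 1.78 ± 0.133 in the amyloid genotypes against wild-type (adjusted p = 9.87e-05 and 9.35e-06) and differed by 0.39 ± 0.123 between them (adjusted p = 0.0854). Stat2, part of the type I interferon signal, rose by 0.57 ± 0.107 between the amyloid genotypes (adjusted p = 0.00918), a call lost in 3 of 20 alternatives, with adjusted p = 0.0832 without the 3 libraries apart. Nlrc5, the class I transactivator, had only 11 to 47 counts per library. It differed by 0.49 ± 0.354, 0.78 ± 0.325 and 1.27 ± 0.338 in 5xFAD against wild-type, between the amyloid genotypes, and in 5xFAD/Cd5l tg/wt against wild-type (adjusted p = 0.554, 0.183 and 0.104). It was named after its values were seen.

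Ifnb1 and Ifng, the only interferon ligand genes looked at, were at the limit of detection. Ifnb1 had 0 counts in all 9 libraries and Ifng 1 count in all, where 3 counts are the limit that a count of 0 allows. Of the 7 receptor and kinase genes tested, Ifngr2, a chain of the interferon gamma receptor, rose by 0.36 ± 0.0789 in 5xFAD mice (adjusted p = 0.026), a call lost in 6 of 20 alternatives. Tyk2, a kinase of the type I receptor, rose by 0.41 ± 0.109 between the amyloid genotypes (adjusted p = 0.0452), a call lost in 15 of 20 alternatives, with 0.31 (adjusted p = 0.265) without the 3 libraries apart. None of the 7 passed in 5xFAD/Cd5l tg/wt against wild-type mice, where 3 had an unadjusted p under 0.05.

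Of 22 interferon-stimulated genes, 1 rose in 5xFAD against wild-type mice, 2 between the amyloid genotypes and 1 in 5xFAD/Cd5l tg/wt against wild-type, and none fell. Their medians were 0.31, 0.46 and 0.79, and 18, 22 and 22 of the differences were above 0. At an unadjusted p under 0.05 there were 3, 9 and 18 of the 22, where all tested genes gave 16.3%, 22.3% and 12.4%. Every 5xFAD library lay above every wild-type library for 1 of the 22 genes, and every 5xFAD/Cd5l tg/wt library lay above every 5xFAD library for 6 and above every wild-type library for 16, against 10.4%, 16.6% and 7.93% of all tested genes. Bst2, the virus tether tetherin, rose by 1.10 ± 0.257 in 5xFAD (adjusted p = 0.0351) and by 1.17 ± 0.257 in 5xFAD/Cd5l tg/wt mice (adjusted p = 0.0418), both against wild-type, calls lost in 5 and 11 of 20 alternatives. The second was 0.92 without the 3 libraries apart (adjusted p = 0.22). Between the amyloid genotypes Xaf1 rose by 0.77 ± 0.181 (adjusted p = 0.0283) and Rsad2, the antiviral enzyme viperin, by 1.05 ± 0.281 (adjusted p = 0.0458), calls lost in 4 and 10 of 20 alternatives. Without the 3 libraries apart these were 0.78 and 0.91 (adjusted p = 0.0751 and 0.252). Rsad2 stood at 1.125, 1.515 and 2.075 CPM in 5xFAD and 2.996, 3.574 and 3.216 CPM in 5xFAD/Cd5l tg/wt libraries, with no overlap.

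MHC class II genes present peptides to CD4 T cells. Of 6 tested, 3 rose in 5xFAD against wild-type mice: Cd74 by 1.67 ± 0.232, H2-Aa by 1.64 ± 0.333 and H2-Ab1 by 1.35 ± 0.283 (adjusted p = 0.00162, 0.0177 and 0.0209), with 0, 3 and 4 of 20 alternatives losing the call. Cd74 in 5xFAD/Cd5l tg/wt against wild-type rose by 1.21 ± 0.234 and H2-DMa by 0.64 ± 0.139 (adjusted p = 0.0199 and 0.0403), calls lost in 5 and 8 of 20 alternatives. Without the 3 libraries apart the value of H2-DMa was 0.57 (adjusted p = 0.223). Between the amyloid genotypes 0 of 6 passed, 1 of them had an unadjusted p under 0.05, and the median was -0.18, where that of the 9 class I genes was 0.27. Cd74 there differed by -0.46 ± 0.217 (adjusted p = 0.234) and H2-DMa by 0.35 (adjusted p = 0.151). The difference between class I and class II was not tested.

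**Figure D4:**
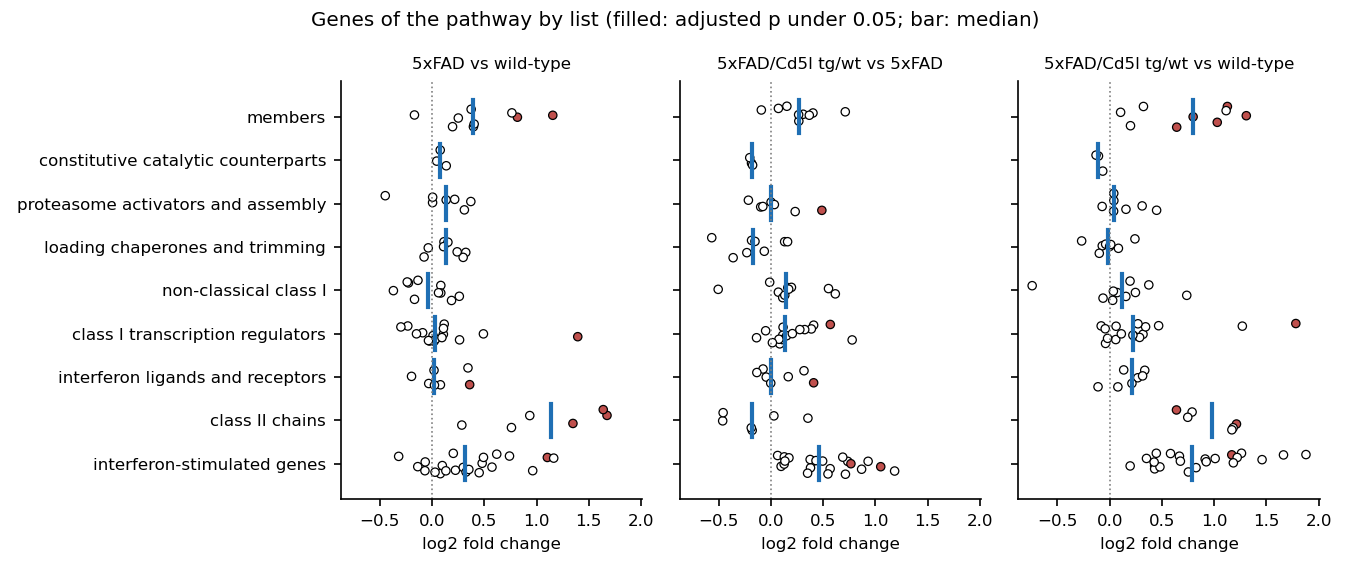
Log2 fold change (horizontal axis) of each tested gene, by list (vertical axis), in the 3 comparisons, filled where the adjusted p was under 0.05, with the list's median as a bar. The 9 members have medians of 0.40, 0.27 and 0.80 from left to right, and the class II chains 1.14, -0.18 and 0.98.

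The 67 tested neighbours inside the same 1352 kb of chromosome 17 (GRCm39, 34134873 to 35486475), leaving out members and symbols starting with H2-, had medians of -0.04, 0.02 and 0.02 in 5xFAD against wild-type, between the amyloid genotypes, and in 5xFAD/Cd5l tg/wt against wild-type. Of these 67 genes 3, 3 and 4 rose and 0 fell. Over all tested genes 1.06%, 5.34% and 1.38% rose and 2.44%, 0.888% and 0.199% fell. The complement gene C4b rose in each comparison, by 1.09 ± 0.199, 0.92 ± 0.194 and 2.01 ± 0.202 (adjusted p = 0.0107, 0.0161 and 0.000121). The others were Aif1 and Gpsm3 in both comparisons with wild-type, Rgl2 and Col11a2 between the amyloid genotypes, and the unnamed gene ENSMUSG00000120992 in 5xFAD/Cd5l tg/wt against wild-type.

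Most microglial markers also rose in both amyloid genotypes against wild-type. The 8 microglial markers, such as Cx3cr1, Csf1r and P2ry12, summed to 300 to 342 CPM in wild-type, 531 to 684 in the 5xFAD and 646 to 712 in 5xFAD/Cd5l tg/wt libraries. None was at 0 in any library, and 8, 0 and 7 of 8 rose in 5xFAD against wild-type, between the amyloid genotypes, and in 5xFAD/Cd5l tg/wt against wild-type. The 6 markers of plaque-associated microglia summed to 25.1 to 32.7, 137 to 210 and 182 to 249 CPM in the 3 genotypes. Per 100 CPM of the 8 microglial markers, B2m stood at 26 ± 3.42 CPM in wild-type, 24 ± 0.171 in the 5xFAD and 26 ± 2.74 in 5xFAD/Cd5l tg/wt mice (SD, n = 3). Thus B2m overlapped between all 3 genotypes on this scale, and so did Psmb8 (1.04 ± 0.0793, 0.94 ± 0.255 and 0.98 ± 0.145) and Psmb9 (0.378 ± 0.0528, 0.446 ± 0.104 and 0.429 ± 0.0854). Tapbp stood at 8.97 ± 0.698 in wild-type, 5.65 ± 0.395 in the 5xFAD and 5.18 ± 0.679 in 5xFAD/Cd5l tg/wt mice, and every amyloid library was below every wild-type library. Tap2 and Psmb10 were ordered likewise, at 3.98 ± 0.706 and 8.32 ± 1.01 in wild-type against 1.88 ± 0.24 and 5.11 ± 0.752 in 5xFAD mice. H2-K1 also lay lower in all amyloid libraries (7.61 to 9.28) than in wild-type (10.3 to 13.3). H2-D1 (17.2 ± 3.56, 11.9 ± 1.15 and 13.7 ± 1.75) and Tap1 (1.08 ± 0.389, 0.742 ± 0.228 and 1.08 ± 0.11) overlapped between wild-type and at least 1 amyloid genotype. The summed markers rose with amyloid, so any gene that rises less than they do must fall on this scale. The order of Tapbp, Tap2, Psmb10 and H2-K1 thus says only that these genes rose less than the markers or not at all. The part of microglia in the members' differences was not tested.

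**Figure D5:**
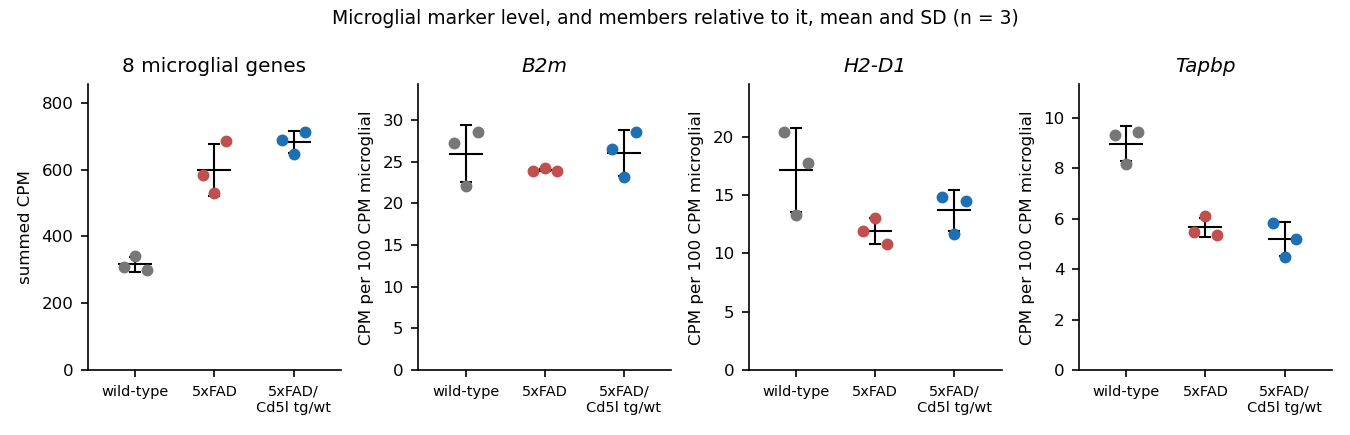
Summed CPM of the 8 microglial markers (left) and CPM of B2m, H2-D1 and Tapbp per 100 CPM of those markers, by library (points) with mean and SD of 3 libraries, axes starting at 0. B2m stays at 22.1 to 28.6 in all genotypes, whereas Tapbp is at 8.17 to 9.43 in wild-type and 4.49 to 6.1 in amyloid libraries. A gene that rises less than the markers must fall on this scale.

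Some markers of other cell types also differed between genotypes. The 5 astrocyte markers summed to 2880 to 3170 CPM in wild-type, 3780 to 3880 in the 5xFAD and 4020 to 4190 in 5xFAD/Cd5l tg/wt libraries, none at 0. Of the 5, Gfap rose in both amyloid genotypes against wild-type, by 1.57 ± 0.124 and 1.95 ± 0.126 (adjusted p = 2.93e-05 and 4.75e-06), and none passed between the amyloid genotypes, where 1 had an unadjusted p under 0.05. The 5 oligodendrocyte markers summed to 6840 to 7690, 6130 to 6970 and 4320 to 6490 CPM in these genotypes, and with edgeR 0 of 5 passed in each comparison (0, 2 and 4 at an unadjusted p under 0.05, in the order used above). Blood markers summed to 0.851 to 3.18 CPM in 7 libraries, with up to 2 of the 5 at 0, but to 22 in 5xFAD library 3 and 13.7 in library 3 of 5xFAD/Cd5l tg/wt, which also had the highest B2m of their genotypes. The 7 endothelial markers summed to 216 to 244 CPM in wild-type, 136 to 162 in the 5xFAD and 232 to 268 in 5xFAD/Cd5l tg/wt libraries, none at 0. Of these 4 fell in 5xFAD against wild-type, 5 rose between the amyloid genotypes and 0 passed in 5xFAD/Cd5l tg/wt against wild-type. The part of these cell types and of blood in the members' differences was not tested. Of the T cell markers, Cd3e had 0 to 2 counts per library, Cd3d 0 to 3 and Cd3g 0 or 1. Cd8a had 0 to 6 counts per library, whereas Trac had 8 to 20. The 9 markers summed to 10.9 to 27.6 CPM over the 9 libraries, mostly from Cd4 and Trbc2. Receptors that read class I were scarce too. Pirb, an inhibitory receptor, had 2 to 6 counts per library in wild-type, 5 to 8 in 5xFAD and 9 to 11 in 5xFAD/Cd5l tg/wt mice. Cd160 had 0, and none of the 6 receptor genes in the table passed the filter.

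The members themselves differed in how closely they followed each other. Over the 9 libraries, which include the genotype differences, the correlation of log2 CPM with the mean of the other members was highest for H2-K1 (r = 0.982), Psmb8 (0.942), B2m (0.923) and H2-D1 (0.909). It was lower for Psmb9 (0.869), Tap1 (0.784) and Tapbp (0.748) and lowest for Tap2 (0.409) and Psmb10 (0.401). Among genes outside the list with a mean of at least 1 CPM, the 8 most like the members' mean were Ctsa (r = 0.973), Capg (0.97), Cd37 (0.966), Slamf9 (0.966), Gngt2 (0.963), Cybb (0.955), Cxcl16 (0.953) and Unc93b1 (0.952). Ctsa, which encodes the lysosomal protease cathepsin A, stood at 97.7, 123 and 141 CPM in wild-type, in 5xFAD and then in 5xFAD/Cd5l tg/wt mice, and Cybb, a subunit of the phagocyte oxidase, at 0.9, 2.07 and 3.68 CPM. These correlations describe the 9 libraries and carry no test.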

How the data were processed

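RNA sequencing counts of 9 mouse brain libraries were analysed. The authors deposited 1 table of unnormalized read counts per gene, with symbols, coordinates and lengths; per the submitters' processing notes the build is GRCm39. Aligner, counter, strandedness and the treatment of reads matching several genes: not given in the sources used here. Groups come from the labelled genotype. The labels do not say that mice came from separate litters, so p-values measure the spread between these libraries.

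Genes were filtered with filterByExpr (minimum count 10, total 15, by genotype), which took away up to 0.161% of the counts in a library, scaled by TMM (factors 0.987 to 1.018) and fitted over all 9 libraries with edgeR 4.0.16 (limma 3.58.1, R 4.3.3). The SE is the absolute log2 fold change divided by the square root of F. CPM use the scaled library sizes. On simulated counts the test recovered 55.2%, 46.3% and 47.8% of genes changed 1.5-fold, and 68.7%, 80.6% and 70.1% of those changed 2-fold, in 5xFAD against wild-type, between the amyloid genotypes, and in 5xFAD/Cd5l tg/wt against wild-type (17292, 17307 and 17290 genes). Of the calls on these simulated counts 3.92%, 7.36% and 9.62% were false, in the same order. Except in 5xFAD against wild-type, this share was above the threshold set for the adjusted p. Limits from counts cover counting error only. Correlations of log2 CPM used a prior count of 2. Promoters are from RefSeq (GRCm38.p6), and the 50-base words are from GENCODE transcripts. Figures were drawn with matplotlib 3.10.9.

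The members and all lists were chosen with earlier results of these data known. Named were all members, in each list every gene that passed (at most 4) or else the gene with the smallest p, the constitutive subunits always, and the 8 genes most like the members. Nlrc5, Slc6a3, Drd2, Ppp1r1b, Chrna3, Psme1, Cbln3, C4b, the named marker and receptor genes, and the motif AAANNGAAA were chosen after values or sequences were seen. The 20 alternatives were scaling by RLE, by upper quartile or by total count, no filter, limma-voom, DESeq2 1.42.0, a minimum of 1 CPM in 3 libraries, a fit of the 6 libraries in a comparison, a block for the replicate number, each library left out, the 3 libraries apart left out, and mitochondrial, globin and ribosomal RNA genes left out.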

Additional observations from a re-analysis of the deposited data

How the results depend on the processing

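With 3 libraries a group, the call of B2m against wild-type in both amyloid genotypes, and of H2-D1 in 5xFAD/Cd5l tg/wt, passed in all 20 alternatives. Of 9 members, 2 passed in 5xFAD against wild-type, and 1 passed with upper-quartile or total-count scaling, limma-voom or the replicate block, 5 without a filter, and 1 to 2 on leaving out each library. Between the amyloid genotypes 0 passed, 3 without a filter, 1 with the replicate block (B2m), 1 without the 3 libraries apart in regional genes (H2-D1), and 0 to 1 on leaving out each library. In 5xFAD/Cd5l tg/wt against wild-type 5 passed, 3 with limma-voom, 2 in the fit of 6 libraries, 3 without the 3 libraries apart, and 2 to 6 on leaving out each library: 2 without wild-type library 2 or 3 or 5xFAD/Cd5l tg/wt library 3, and 3 without 5xFAD library 1 or 3.

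Over all genes, 615 passed in 5xFAD against wild-type, 1354 without a filter, 1154 without the 3 libraries apart and 206 to 850 on leaving out each library. The amyloid genotypes differed in 1095 genes, 2063 without a filter, 630 without the 3 libraries apart and 278 to 2069 on leaving out each library. The count against wild-type in 5xFAD/Cd5l tg/wt mice was 277, 1062 without a filter, 452 with DESeq2, 176 in the fit of 6 libraries and 158 to 686 on leaving out each library. The cause of these changes was not tested. The log2 ratio Psmb10/Psmb7 in 5xFAD/Cd5l tg/wt against wild-type was 0.249, and 0.0936 without the 3 libraries apart.

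Some small differences that did not pass changed sign. On leaving out each library, the difference between the amyloid genotypes ran from -0.0456 to 0.335 for Psmb9, below 0 without 5xFAD library 2 (-0.00677) and without library 3 of 5xFAD/Cd5l tg/wt, and from -0.0285 to 0.195 for Tapbp, below 0 without 5xFAD/Cd5l tg/wt library 1. That of 5xFAD/Cd5l tg/wt from wild-type ran from -0.125 to 0.0117 for Psmb6, above 0 without wild-type library 2, and from -0.0201 to 0.184 for Psmb10, below 0 without wild-type library 3. Without the 3 libraries apart it was -0.0902 for Psmb10 and -0.117 for Tap2.

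Deviations from the genotype means correlated at -0.1 to 0.154 for libraries of the same replicate number. Libraries of different numbers were not compared in this way, so whether the numbers pair the libraries was not tested. With the replicate block 506, 836 and 240 genes passed in 5xFAD against wild-type, between the amyloid genotypes, and in 5xFAD/Cd5l tg/wt against wild-type, and 1, 1 and 4 members.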
